A study of Rattus norvegicus with 12 samples.

Results

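Ttr encodes transthyretin, and it was read here as the single gene listed under the Ensembl identifier ENSRNOG00000016275, 1 of 25908 genes in the deposited table. The choice was made by identifier, with earlier results of these data known. The table holds no gene names, and a RefSeq list of rat genes (assembly GRCr8, 47357 genes) matched 0 of its identifiers, so the pairing of this identifier with Ttr could not be checked against that list. RNA was sequenced from adult male Sprague Dawley rats aged 15 weeks. The groups were wild-type (WT) brain, hDNMT3A brain, WT testis and hDNMT3A testis, with 3 libraries each, and hDNMT3A stands for a human-derived DNMT3A transgene whose product is a DNA methyltransferase. The labels name no agent, no brain region and no promoter for the transgene, and they do not say whether the replicates were separate animals, so p-values measure only the spread between these libraries, which may be technical.

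Transthyretin is a secreted carrier protein. It binds thyroxine and, together with retinol-binding protein, carries retinol. In the brain its mRNA is known from the epithelium of the choroid plexus, the tissue that makes cerebrospinal fluid, which secretes the protein into that fluid; the liver is the main source of the protein in plasma. For that reason the gene is widely used to tell whether a brain sample held choroid plexus.

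The annotated start of Ttr is shown because the transgene product acts on cytosines of CG dinucleotides, the capitals in the sequence. The RefSeq window, matched by the symbol Ttr, runs from 250 bases before to 50 bases after the start and lies at chr18:12218508-12218807 on the plus strand of GRCr8.
Ttr: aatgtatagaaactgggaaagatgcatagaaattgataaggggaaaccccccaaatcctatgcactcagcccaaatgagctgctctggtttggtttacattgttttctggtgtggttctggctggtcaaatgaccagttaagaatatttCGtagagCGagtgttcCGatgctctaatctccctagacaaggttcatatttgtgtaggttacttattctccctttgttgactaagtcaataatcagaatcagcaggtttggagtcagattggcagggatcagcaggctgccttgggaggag
These 300 bases hold 3 CG dinucleotides, against a median of 7 over 33469 rat promoters of the same length, and 30.8% of promoters hold 3 or fewer. Because CG reads the same on both strands, each was counted once. Methylation was not analysed here, and the letters say nothing of it.

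Levels are given in FPKM, the fragments of a gene scaled to its length and to the size of the library. The FPKM values of a gene rise in steps of 1 read, which gave back the reads behind each value. For Ttr the steps gave a gene length of 701 bp, and library totals ran from 14004547 to 16112149 reads. In WT brain replicate 2, 203 genes abundant in testis and near 0 in brain stood at 1.59% of their testis level, against 0.0511% to 0.330% in the other brain libraries. The source of these reads and their part in the results were not tested.

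Ttr was a weakly detected transcript in brain. In WT brain it stood at 5.23 FPKM in replicate 1 (55 reads), 0.407 FPKM in replicate 2 (4 reads) and 1.03 FPKM in replicate 3 (11 reads). In hDNMT3A brain it stood at 1.31 FPKM in replicate 1 (14 reads), 5.91 FPKM in replicate 2 (65 reads) and 3.10 FPKM in replicate 3 (33 reads). Each genotype thus had 1 library above 5 FPKM and at least 1 below 1.5, and the groups overlapped over most of their range. Over the 6 brain libraries the mean was 2.83 FPKM ± 2.31 (SD, n = 6), a level above that of 17.8% of the 13827 genes whose brain mean reached 1 FPKM. Fewer cells that express the gene and less of its RNA per cell cannot be told apart in such bulk samples. Other markers of choroid plexus epithelium, ependyma and meninges, and lists of thyroid hormone and retinol genes, were not analysed here for want of names. The amount of choroid plexus in each library was therefore not tested, and the name of a choroid plexus gene rests on background knowledge alone.

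In testis the gene was at or near the limit of detection. It had 0 reads in each of the 3 WT libraries and in hDNMT3A replicates 1 and 3. A count of 0 allows up to 3 reads (one-sided 95% limit), which is 0.266 to 0.294 FPKM in these 5 libraries. The upper end of the two-sided exact Poisson interval is higher there, at 0.327 to 0.361 FPKM. In hDNMT3A testis replicate 2 Ttr had 4 reads, or 0.385 FPKM, with a two-sided 95% exact Poisson interval of 0.105 to 0.985 FPKM. These limits and intervals cover counting error only, because without molecular identifiers some reads may be copies of 1 molecule. The 4 reads came from the library whose number is shared with the brain library highest in Ttr, and the labels do not say whether the pair came from 1 rat. Genes abundant in brain and near 0 in testis (64 genes) stood at 0.0901% of their brain level in that library and at 0.0637% to 0.0926% in the other testis libraries. The source of the 4 reads was not tested.

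**Figure D1:**
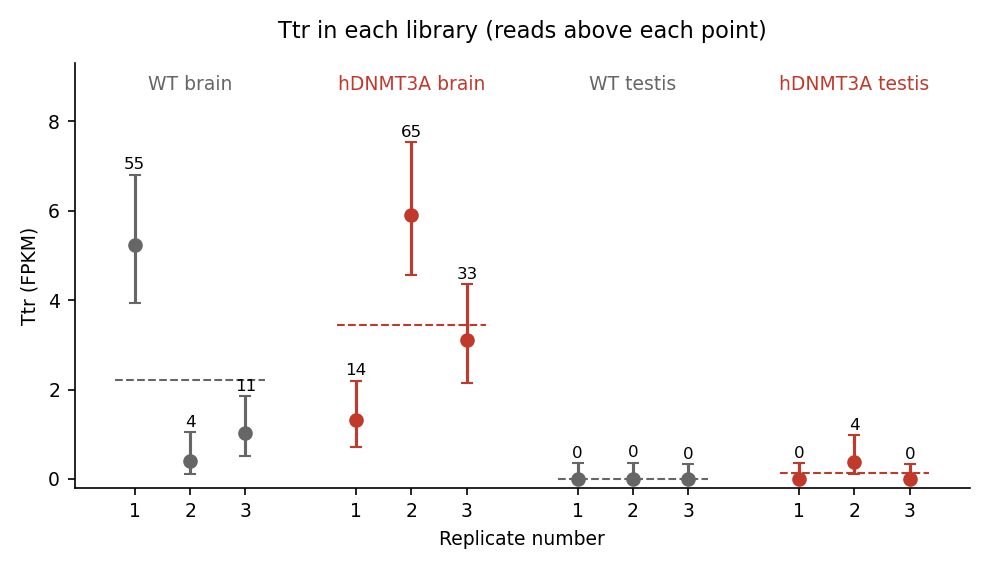
FPKM of Ttr (vertical axis) in each of the 12 libraries, by group and replicate number (grey, WT; red, hDNMT3A). Bars are 95% exact Poisson intervals, which cover counting error only, numbers are reads and dashed lines are group means. Brain libraries lie between 0.407 and 5.91 FPKM and 5 of the 6 testis libraries lie at 0.

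By group means the order of levels was hDNMT3A brain at 3.44 FPKM ± 2.32 (SD, n = 3), WT brain at 2.22 FPKM ± 2.62 (SD, n = 3), hDNMT3A testis at 0.128 FPKM ± 0.222 (SD, n = 3) and WT testis, with each library at 0. Neither the brain groups nor the testis groups were separated by more than their spread. All 6 brain values lay above all 6 testis values, but the lowest brain library (0.407 FPKM, 95% exact Poisson interval 0.111 to 1.04) and the highest testis library had 4 reads each.

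The question of the study's main comparison, whether the transgene altered transcript levels, was asked of Ttr in each tissue. In brain the gene was 0.80 higher in hDNMT3A than in WT on the log2(FPKM + 0.5) scale (SE 0.71, 95% interval -0.87 to 2.47), which limma did not call (adjusted p = 0.884). The interval spans both a decrease and a severalfold increase, so these libraries do not show that the level was the same. Of the 13827 genes tested in brain, 0.116% were called. An exact two-sided permutation test of the same difference gave p = 0.4, where 3 against 3 cannot go below 0.1. Leaving out WT replicate 1, the high WT library, raised the difference to 1.56. Its interval there, 0.27 to 2.85, left out 0, but adjusted p was 0.752 by limma, and without any other single library the interval included 0. Leaving out WT replicate 2, the lowest and the one with the higher level of testis-restricted genes, lowered the difference to 0.23. Without hDNMT3A replicate 1 it was 1.27 and without replicate 2 it was 0.36. With limma's array weights it was 0.074, and limma called none of these. Summed over libraries, hDNMT3A brain held 112 reads of Ttr and WT brain 70, a depth-scaled ratio of 1.53 whose counting interval (95% exact, 1.13 to 2.10) leaves out the spread between libraries.

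In testis the mean of Ttr was under the 1 FPKM filter, so the comparison was fitted with no filter over 24516 genes, of which 0.237% were called. The difference, hDNMT3A minus WT, was 0.27 on the log2(FPKM + 0.5) scale (SE 0.23, 95% interval -0.28 to 0.83), and limma did not call it (adjusted p = 0.768). It rests on the 4 reads of hDNMT3A replicate 2, since the other 5 libraries had none. The exact two-sided permutation test could give only p = 1. With 5 libraries at 0, every grouping gives a difference of the same size, so this test decides nothing. The difference of the genotype effects, brain minus testis, was 0.52 (SE 0.87, 95% interval -1.38 to 2.43) and was not called (adjusted p = 0.925 by limma), where 0.429% of 16100 genes were. Without WT brain replicate 2 it turned to -0.046, and with limma's array weights to -0.84. With WT testis at 0, its testis part could not show a decrease and its size moved with the pseudocount. In place of 0.5, a pseudocount of 0.1 gave 0.29 and 1 gave 0.47, and limma's voom on the recovered reads gave 0.051.

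Brain and testis differed in Ttr in both genotypes. In WT rats brain held 70 reads of Ttr and testis 0. With 3 reads over the 3 testis libraries as the floor (one-sided 95% limit), brain stood at least 24.1-fold higher. Of the 70 reads, 55 came from replicate 1, and without it the same floor gave at least 7.83-fold. These bounds leave out the counting error of the brain reads and the spread between libraries. The log2(FPKM + 0.5) difference was 2.00 (SE 0.64, 95% interval 0.45 to 3.55), which limma called (adjusted p = 0.0222). In hDNMT3A rats 112 reads in brain stood against 4 in testis, a depth-scaled ratio of 27.9 (95% exact counting interval 10.6 to 104). There the difference was 2.52 (SE 0.46, 95% interval 1.44 to 3.60), also called (adjusted p = 0.00107 by limma). Such calls were frequent: 48.2% of the 16115 genes tested in WT and 47.6% of 16102 in hDNMT3A were called higher in brain. The median of all genes lay at 0.23 and 0.21 toward brain, and at -0.17 and -0.19 once libraries were brought to a common median log2 ratio, while Ttr stood at 1.85 and 2.30 on that scaling.

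The WT tissue call leaned on testis libraries without measured spread. All 3 stood at 0 FPKM, so their log2 values were equal, while limma pools the spread over both groups. Leaving out WT testis replicate 1, 2 or 3 kept the difference at 2.00 but raised the SE from 0.64 to 0.79. Adjusted p was then 0.057, 0.0568 and 0.057 by limma. Without WT brain replicate 1 the gene fell under the filter, and with no filter the difference was then 1.24 (adjusted p = 0.00704 by limma). The size also moved with the pseudocount, because testis stood at 0: with 0.1 in place of 0.5 the differences were 3.86 in WT and 4.15 in hDNMT3A, with 1 the WT difference was 1.39, and limma's voom on the recovered reads gave 4.90 and 4.94.

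**Figure D2:**
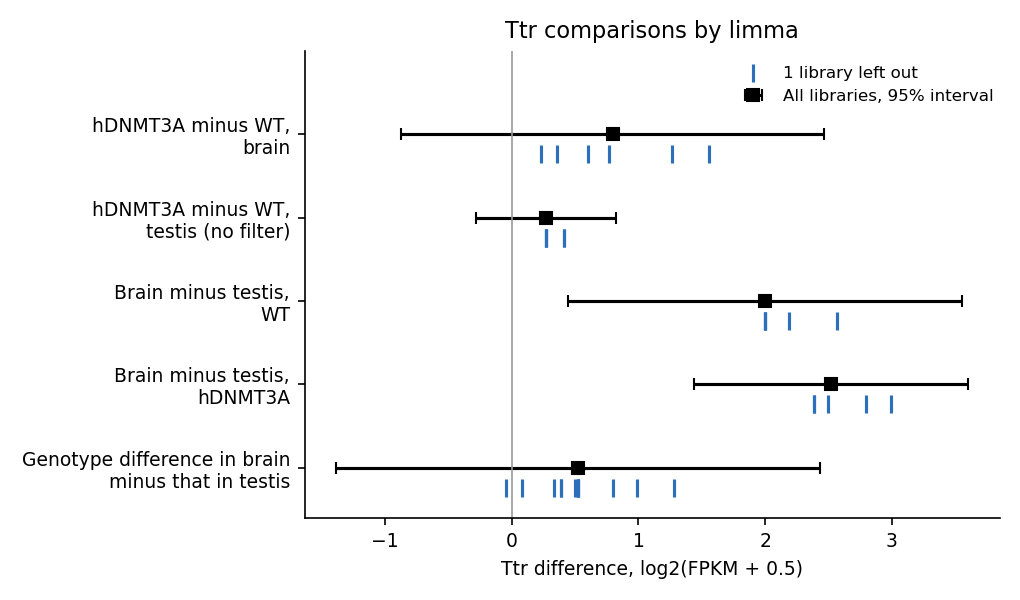
Difference of Ttr on the log2(FPKM + 0.5) scale (horizontal axis) in the 5 comparisons. Black squares and bars are the limma estimate and its 95% interval, and blue marks are the estimates with 1 library left out, where the gene was still tested. Both intervals between tissues lie above 0, and the 3 intervals on genotype include 0.

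Ttr differed widely between the brain libraries of each genotype. The coefficient of variation was 118% in WT brain, where counting alone would give 20.7% at a mean of 23.3 reads, and 67.3% in hDNMT3A brain, against 16.4% at a mean of 37.3 reads. A spread above counting error was not particular to Ttr, since brain libraries of 1 genotype differed by a mean chi-square of 7.36 to 13.4 over genes. That mean weighs genes with many reads most, so its size cannot be set beside the coefficients of variation of Ttr. In WT brain the Poisson interval of replicate 1 (3.94 to 6.81 FPKM) lay clear of those of replicates 2 (0.111 to 1.04) and 3 (0.515 to 1.85). In hDNMT3A brain the interval of replicate 2 (4.56 to 7.53 FPKM) lay clear of those of replicates 1 (0.717 to 2.20) and 3 (2.14 to 4.36), which overlapped. The highest library exceeded the lowest 12.8-fold in WT brain and 4.51-fold in hDNMT3A brain. Over all 6 libraries the range was 14.5-fold. Without WT replicate 2, the library with the higher level of testis-restricted genes, it was 5.72-fold.

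Few genes varied more between brain libraries. The SD of Ttr within genotype was 1.16 on the log2(FPKM + 0.5) scale, against a median of 0.14 over the 13827 genes, and 204 genes had a higher one. Low transcripts vary more on this scale. Among the 4123 genes with a mean of 1 to 5 FPKM the median was 0.24, and Ttr stood above 95.6% of them, with 179 genes higher. This position is a description of these 6 libraries. The genes were matched by FPKM and not by reads, so their counting error differs with gene length.

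**Figure D3:**
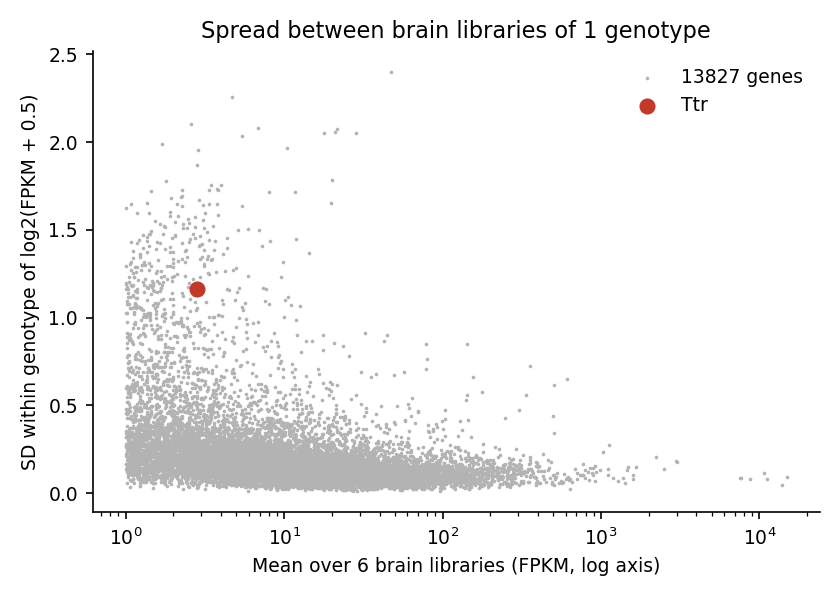
SD within genotype of log2(FPKM + 0.5) over the brain libraries (vertical axis) against the mean level (horizontal log axis) for 13827 genes, with 1 point per gene. Ttr (red) lies at 2.83 FPKM and an SD of 1.16, above most genes of its level.

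Genes with a profile like that of Ttr were sought over the 6 brain libraries, by Pearson's r on log2(FPKM + 0.5), among 2043 genes that averaged 1 FPKM or more in brain and whose highest library was at least 2-fold its lowest. The 10 highest had r between 0.906 and 0.967. All 10 were low transcripts, with means of 1.18 to 3.52 FPKM, and they were the only genes to reach 0.9 (0.489% of the 2043). The 2-fold rule favours low transcripts, whose share among the 2043 was not computed, so their low level is not a result. At the opposite end 26 genes (1.27%) had r of -0.9 or lower, so strong likeness to Ttr was no more frequent than strong unlikeness. With 6 points that share library depth and make-up, and counts this sparse, r is a description only.

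The closest gene, ENSRNOG00000028456, had r = 0.967 but a range of only 2.68-fold. It stood at 1.39, 0.666 and 0.991 FPKM in WT brain replicates 1 to 3 (29, 13 and 21 reads) and at 0.989, 1.78 and 1.28 FPKM in hDNMT3A brain (21, 39 and 27 reads). Its libraries fell in nearly the order of Ttr, from WT replicate 2 to hDNMT3A replicate 2, as its choice by r favours. In testis it had 2 to 11 reads in each library (0.0899 to 0.524 FPKM). The next, ENSRNOG00000049069 (r = 0.942), stood at 2.90 FPKM in WT brain replicate 1 and at 0 in replicates 2 and 3, and at 0.272, 3.56 and 0.546 FPKM in hDNMT3A brain. Like Ttr it was high in WT replicate 1 and hDNMT3A replicate 2, as its choice by r over these libraries favours. In testis it stood at 0.259 to 3.84 FPKM (2 to 27 reads), where Ttr had 0 to 4 reads. Over all 12 libraries and 16099 genes, the 5 closest genes had r of 0.927 to 0.957. There the difference between tissues weighs most, and their highest libraries exceeded their lowest 1.57- to 7.20-fold. Over these 12 libraries 23 genes (0.143%) had r of 0.9 or higher and 47 (0.292%) had r of -0.9 or lower.

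**Figure D4:**
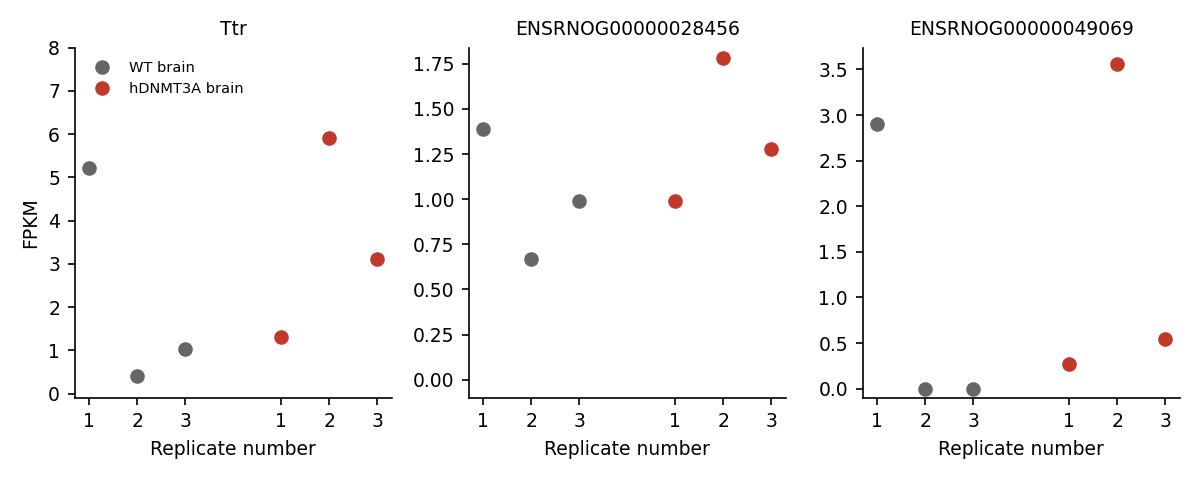
FPKM (vertical axis, a separate scale for each gene) of Ttr and of the 2 genes most like it over the brain libraries, by replicate number (grey, WT; red, hDNMT3A). In each panel WT replicate 1 and hDNMT3A replicate 2 are the highest 2 of the 6 libraries, as the choice of these genes by r over the same libraries favours.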

How the data were processed

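Gene levels of 12 libraries came as FPKM, in 1 table that the authors deposited with Ensembl identifiers. Total RNA extracted with Trizol was made into libraries with an Illumina TruSeq kit, per the labels' protocols. The submitters' processing notes name Bowtie 1.0.1 and the genome build Rnor_6.0. The counting tool, annotation and strand setting were not given in the sources used here, and reads shared with overlapping or similar genes are uncertain.

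The gene, lists and rules were chosen with earlier results of these data known. Reads were recovered as whole multiples of 1 read within 0.002 reads, for lengths up to 60000 bp, in 100% of 25908 genes. Of 2000 genes moved by about 1%, 0% came out whole, and in simulated data 5072 of 5072 genes were recovered exactly. Both checks kept only genes with reads in several libraries. They do not cover genes with reads in few libraries, which come out whole more easily. The chi-square between libraries of 1 group had a mean over genes of 4.53 to 13.4, above sampling noise, and each library counted as a sample. limma 3.58.1 in R 4.3.3 (intensity trend, two-sided) was run on log2(FPKM + 0.5) for genes averaging 1 FPKM or more in the fitted libraries, with calls at a p under 0.05 after Benjamini-Hochberg adjustment over all genes. It takes the spread as equal in the groups fitted. In reads simulated for the brain comparison (13797 genes), 83 of 100 genes changed 2-fold and 100 of 100 changed 4-fold were called, with 16 false calls. Of 100 genes changed 2-fold, 71 were called for testis (14566 genes), 52 for tissue in WT (16121), 73 for tissue in hDNMT3A (16098) and 25 for the interaction (16130). The simulations used 1 fixed spread between libraries for all genes and changed only small sets of genes, chosen above a minimum mean. The real tissue comparisons differ in far more genes, so these numbers do not give what they could detect. Ttr also varied more than most genes, so the numbers do not describe what could be detected for it. Genes restricted to 1 tissue were those averaging 100 FPKM or more in 1 tissue with a median no higher than 0.5 FPKM in the other. Named genes were the 10 most like Ttr in brain and the 5 most like it over all libraries. Because identifiers had no names, only the leading 2 were printed, and the marker and pathway lists were not run. Alternatives changed the pseudocount, filter, scaling, trend, library weights, libraries fitted, count model and replicate term. Python 3.11.15, numpy 2.4.6, pandas 2.3.3, scipy 1.17.1 and matplotlib 3.10.9 did the rest.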

Additional observations from a re-analysis of the deposited data

How the results depend on the processing

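The genotype difference in brain stayed positive and uncalled in 16 alternatives (0.07 to 1.56 on the log2 scale). That in testis was positive and uncalled in 14 (0.16 to 1.04). All testis reads of Ttr lay in hDNMT3A replicate 2, so the sign in testis could hardly change and its constancy is not a result. With 1 library left out, the exact-test differences ran from 0.23 to 1.56 in brain and from 0.27 to 0.41 in testis, and without hDNMT3A testis replicate 2 each testis library stood at 0. The tissue difference was called in all 16 alternatives in hDNMT3A and in 13 of 16 in WT, where fits without 1 library gave 1.24 to 2.57 (adjusted p by limma 0.00441 to 0.057). Those without a WT testis library, at 2.00, lost the call. The interaction turned to -0.84 with array weights and ran from -0.046 to 1.28 without single libraries, never called in 21 alternatives. Ttr was not tested under a minimum mean of 5 FPKM. The fits with no filter and without WT brain replicate 1 (1.24 in WT) or hDNMT3A brain replicate 2 (2.08 in hDNMT3A), and the read bound without WT brain replicate 1, were chosen after seeing the data. Same-numbered libraries were not shown to be paired: deviations from group means correlated at -0.02 to 0.02 between tissues in WT and 0.00 to 0.11 in hDNMT3A, and at -0.25 to -0.02 between genotypes in brain and 0.04 to 0.11 in testis. Each library correlated best with its own number only between genotypes in testis (3 of 3). With the replicate block the Ttr differences stayed at 0.80, 0.27, 2.00, 2.52 and 0.52 and no call changed. Depth limits Ttr to 4 to 65 reads in brain and 0 to 4 in testis. A count of 0 allows up to 3 reads in a library (one-sided 95% limit).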
